A study of Mus musculus with 9 samples.

Results

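Gata1 to Gata6 encode the GATA family of transcription factors, 6 of the 24421 genes in the count table, chosen by gene symbol and described across the groups of the study. GATA factors are DNA-binding proteins that carry a pair of zinc fingers of the GATA type and recognise short DNA sequences with the letters GATA at their core. Gata1, Gata2 and Gata3 are best known from blood cells and, for Gata2 and Gata3, from the trophoblast of the placenta, whereas Gata4, Gata5 and Gata6 are best known from endoderm and heart. In mouse embryonic stem (ES) cells, forced expression of Gata6 or Gata4 drives conversion into primitive endoderm-like cells.

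RNA was sequenced from the mouse ES cell line D3, kept feeder-free on gelatin with serum and ESGRO, a preparation of leukaemia inhibitory factor that holds ES cells undifferentiated. The groups were LAMP2A+DM-αKG (cells overexpressing LAMP2A, treated with 4 mM DM-αKG for 72 h), LAMP2A (the same overexpression without DM-αKG) and VT (cells with a stable pCDH control vector), with 3 libraries each. LAMP2A is the lysosomal receptor of chaperone-mediated autophagy, made from the Lamp2 gene, and DM-αKG is a cell-permeable ester of the metabolite α-ketoglutarate. The labels name no vehicle for the groups without DM-αKG, and say neither whether a line was 1 clone nor whether replicate libraries were grown separately. The p-values therefore reflect the spread among these 9 libraries, and that spread may be technical.

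Libraries held 23636074 to 32809875 counts. Lamp2, counted over the whole gene so that the LAMP2A form, the other forms and the introduced copy cannot be told apart, stood at 95.3 to 99.3 counts per 1000000 (CPM) in LAMP2A+DM-αKG, 403 to 407 CPM in LAMP2A and 56.9 to 60.0 CPM in VT. Lamp2 was 1.67-fold higher in LAMP2A+DM-αKG than in VT and 4.16-fold lower in LAMP2A+DM-αKG than in LAMP2A, so the level of the overexpressed gene itself differed between treated and untreated LAMP2A cells, and its part in the results on the GATA genes was not tested. Summed over 15 genes of pluripotent ES cells, the level was 8036 to 8054 CPM in LAMP2A+DM-αKG, 2293 to 2304 CPM in LAMP2A and 9428 to 9758 CPM in VT. In bulk RNA, fewer cells of a type and less RNA per cell cannot be told apart.

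LAMP2A cells had more RNA of Gata2, Gata3, Gata4, Gata5 and Gata6 than VT cells, LAMP2A+DM-αKG cells had less of all of these than LAMP2A cells, and Gata1 was low throughout. With edgeR's quasi-likelihood test and Benjamini-Hochberg adjustment over 14513 tested genes (adjusted p below 0.05), Gata2, Gata3, Gata4 and Gata6, 4 of the 6 genes, were higher and 0 lower in LAMP2A than in VT. Gata5 was also called, but it passed the filter on low counts only through the LAMP2A libraries and had to differ, so it is left out of these counts, and Gata1 was too low to be kept in the test. Across all tested genes 43.0% were called higher and 42.1% lower in that comparison, and 19.8% were called and at least 2-fold higher, as these 4 were. With DM-αKG, 0 were higher and the same 4 genes were lower than in LAMP2A, each by at least 2-fold, where 41.1% of all genes were called higher, 42.1% lower and 17.6% lower by at least 2-fold. In LAMP2A+DM-αKG against VT, Gata3, Gata4 and Gata6 were higher and Gata2 was lower, where 29.3% of all genes were called in each direction. Gata3 and Gata6 were at least 2-fold higher there, as were 3.93% of all genes. The comparisons share libraries: the rise with LAMP2A and the fall with DM-αKG rest on the same 3 LAMP2A libraries.

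**Figure D1:**
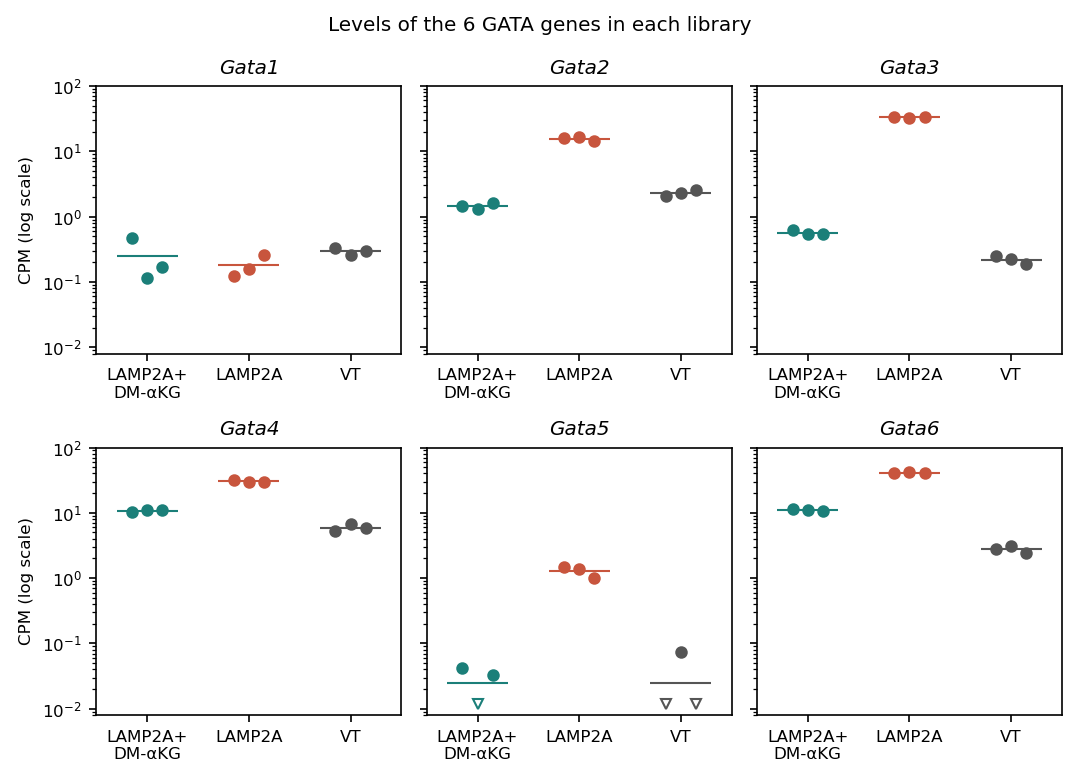
CPM of each GATA gene in every library on a log scale, with a horizontal line at the mean of 3 libraries and a hollow triangle for a library with 0 counts. Gata2 to Gata6 stand highest in the 3 LAMP2A libraries, while Gata1 stays below 0.5 CPM in every library.

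Gata3, a factor of the trophoblast and, in the blood system, of T cells, changed most among Gata2, Gata3, Gata4 and Gata6. It had 0.631, 0.539 and 0.532 CPM in LAMP2A+DM-αKG, 33.1, 32.8 and 33.0 CPM in LAMP2A, and 0.247, 0.222 and 0.186 CPM in VT. The groups did not overlap, and the LAMP2A libraries stood far above all others. In raw counts the VT libraries held 6, 6 and 5 reads and the LAMP2A libraries 1089, 1056 and 883. The VT level thus rests on 17 reads in all, with every VT library under the filter's minimum count of 10. Gata3 was 149-fold higher in LAMP2A than in VT (log2 fold change 7.22, SE 0.120, adjusted p = 8.4e-34 in edgeR's quasi-likelihood test). Of the 14513 tested genes, 125 had a higher log2 fold change. Here and below, SE is the size of the log2 fold change divided by the square root of the test's F statistic. It can understate the error of a large change. From the reads, Gata3 was 152-fold higher (95% interval 94.6 to 261, counting error only), and the authors' deposited SE was 0.356. With DM-αKG Gata3 fell 58.0-fold below LAMP2A (log2 fold change -5.86, SE 0.100, adjusted p = 2.4e-33). What was left in LAMP2A+DM-αKG, 45 reads over 3 libraries, was still 2.56-fold above VT (log2 fold change 1.36, SE 0.345, adjusted p = 0.00106).

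Gata2, a factor of blood stem cells, endothelium and trophoblast giant cells, rose less and ended below its VT level. The libraries had 1.47, 1.31 and 1.63 CPM in LAMP2A+DM-αKG, 15.8, 16.3 and 14.3 CPM in LAMP2A, and 2.10, 2.29 and 2.57 CPM in VT. Every LAMP2A library was above every VT library, and every VT library was above every LAMP2A+DM-αKG library. Gata2 was 6.67-fold higher in LAMP2A than in VT (log2 fold change 2.74, SE 0.0957, adjusted p = 5.0e-24). It was 10.5-fold lower in LAMP2A+DM-αKG than in LAMP2A (log2 fold change -3.39, SE 0.105, adjusted p = 1.7e-25). It was the one member called lower in LAMP2A+DM-αKG than in VT, by 1.57-fold (log2 fold change -0.65, SE 0.168, adjusted p = 0.0012).

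Gata1, the erythroid and megakaryocyte factor, showed no detectable change at this depth. It had 11, 3 and 5 reads in LAMP2A+DM-αKG, 4, 5 and 7 in LAMP2A, and 8, 7 and 8 in VT. The groups overlapped, and the highest single library belonged to LAMP2A+DM-αKG. Mean levels were 0.248 ± 0.187 CPM in LAMP2A+DM-αKG, 0.179 ± 0.0729 CPM in LAMP2A and 0.295 ± 0.0352 CPM in VT (SD, n = 3 each). Two-sided exact permutation tests gave p = 0.2 for LAMP2A against VT, p = 0.7 for LAMP2A+DM-αKG against LAMP2A and p = 0.8 for LAMP2A+DM-αKG against VT, where 3 libraries against 3 cannot go below 0.1. With no filter on low counts, edgeR's fitted log2 fold change in LAMP2A against VT was -0.74 with an SE of 0.502 (adjusted p = 0.187).

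The promoter windows of these blood-system members are shown as a description and were picked after the members' values were seen. Each is the 250 bases before a transcription start from RefSeq (build GRCm38.p6, which has the coordinates of mm10), written 5′ to 3′ on the gene's strand, with CG dinucleotides in capitals. Gata3 is at chr2:9878601-9878850 on the minus strand, the first Gata2 window at chr6:88193641-88193890 on the plus strand and Gata1 at chrX:7967911-7968160 on the minus strand, and none of the 3 windows overlaps an annotated exon of its gene in GENCODE M21. The Gata3 and Gata1 windows lie inside the genes' annotated spans, which include transcripts that start further upstream.
Gata3: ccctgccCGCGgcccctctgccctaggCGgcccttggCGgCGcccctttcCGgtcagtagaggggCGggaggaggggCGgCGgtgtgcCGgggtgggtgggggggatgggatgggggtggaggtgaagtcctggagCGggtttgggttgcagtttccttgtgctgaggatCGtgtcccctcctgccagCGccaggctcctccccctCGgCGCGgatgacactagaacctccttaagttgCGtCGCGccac
Gata2: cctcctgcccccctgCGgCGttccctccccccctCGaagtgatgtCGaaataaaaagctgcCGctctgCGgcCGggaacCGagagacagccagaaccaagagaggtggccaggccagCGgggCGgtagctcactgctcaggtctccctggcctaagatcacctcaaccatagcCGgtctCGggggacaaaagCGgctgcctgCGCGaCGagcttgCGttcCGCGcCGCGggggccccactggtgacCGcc
Gata1: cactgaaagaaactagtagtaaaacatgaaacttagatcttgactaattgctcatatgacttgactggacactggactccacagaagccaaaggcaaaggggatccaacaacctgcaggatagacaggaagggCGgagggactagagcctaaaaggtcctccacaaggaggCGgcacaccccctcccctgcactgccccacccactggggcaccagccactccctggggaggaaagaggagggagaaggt
The Gata3 window holds 19 CG dinucleotides at 70% G and C, the Gata2 window 22 at 67.2% and the Gata1 window 2 at 54%. Over 32851 RefSeq promoter windows of the same length the median was 6 CG dinucleotides, with quartiles of 2 and 16, and a median of 52.4% G and C. More CG dinucleotides than in Gata3 were found in 18.0% of all windows, and more than in Gata1 in 71.0%. The table held 5 windows for 4 members, and the Gata5 window and the second Gata2 window, both of which overlap exons, had 22 and 24. Gata4 and Gata6, which also rose with LAMP2A, had no window. No link between base composition and RNA level was tested. The typical GATA-factor word AGATAA and its variants with T in the first place, G in the last place or both, sought on both strands, occurred in 0 of the 5 windows and in 26.5% of all windows; this says only that these letters are not in these 250 bases. No measurement of DNA methylation or factor binding was analysed here.

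Gata6, which drives primitive endoderm, rose with LAMP2A and lost part of that rise with DM-αKG. It had 11.5, 10.9 and 10.8 CPM in LAMP2A+DM-αKG, 40.5, 41.8 and 40.7 CPM in LAMP2A, and 2.84, 3.14 and 2.45 CPM in VT. The groups stood in 3 separate steps, LAMP2A highest, LAMP2A+DM-αKG between and VT lowest. Gata6 was 14.6-fold higher in LAMP2A than in VT (log2 fold change 3.87, SE 0.0731, adjusted p = 3.9e-32) and 3.71-fold lower in LAMP2A+DM-αKG than in LAMP2A (log2 fold change -1.89, SE 0.0547, adjusted p = 1.8e-26). It remained 3.92-fold above VT in LAMP2A+DM-αKG (log2 fold change 1.97, SE 0.0960, adjusted p = 1.3e-18), a comparison in which 125 of 14513 genes had a higher log2 fold change.

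Gata4, an endoderm and heart factor that can act beside Gata6, showed the same 3 steps with smaller distances. It had 10.3, 10.9 and 11.1 CPM in LAMP2A+DM-αKG, 31.4, 29.9 and 29.5 CPM in LAMP2A, and 5.18, 6.73 and 5.84 CPM in VT. No library of one group reached the range of another. Gata4 was 5.10-fold higher in LAMP2A than in VT (log2 fold change 2.35, SE 0.0694, adjusted p = 3.0e-26), 2.81-fold lower in LAMP2A+DM-αKG than in LAMP2A (log2 fold change -1.49, SE 0.0608, adjusted p = 6.3e-22) and 1.82-fold higher in LAMP2A+DM-αKG than in VT (log2 fold change 0.86, SE 0.0863, adjusted p = 1.8e-10).

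Gata5, a factor of heart and endoderm development, was read almost only in LAMP2A. It had 1, 0 and 1 reads in LAMP2A+DM-αKG, 48, 45 and 27 in LAMP2A, and 0, 2 and 0 in VT. The LAMP2A libraries stood above all others, which is what let the gene pass the filter on low counts. From the reads, its level was 51.1-fold higher in LAMP2A than in VT (95% interval 13.8 to 427, counting error only) and 52.1-fold lower in LAMP2A+DM-αKG than in LAMP2A (95% interval 14.1 to 435, counting error only). Both reads of VT lie in replicate 2, and without that library VT holds 0 reads and the fitted log2 fold change in LAMP2A against VT, 5.45 over all libraries, becomes 8.19, a value that then depends on the fit and is no bound. LAMP2A+DM-αKG and VT each held 2 reads, under the floor of 3 counts, and no fold is given between them.

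How far the LAMP2A+DM-αKG level lay below that of LAMP2A varied between members. LAMP2A+DM-αKG stood at 9.50% of the LAMP2A level for Gata2, 1.72% for Gata3, 35.6% for Gata4 and 27.0% for Gata6. Of the rise over VT seen in LAMP2A, the LAMP2A+DM-αKG libraries kept 17.9 to 21.3% for Gata4, 20.9 to 22.8% for Gata6 and 0.959 to 1.26% for Gata3. For Gata2 the same measure was negative, -7.68 to -5.24%, since all 3 libraries lay under the VT mean. These shares were set against the means of the LAMP2A and VT groups and no test was made between members. The authors' deposited tables gave log2 fold changes of 2.74 for Gata2, 7.25 for Gata3, 2.35 for Gata4 and 3.87 for Gata6 in LAMP2A against VT. In LAMP2A+DM-αKG against LAMP2A the authors' deposited tables gave -3.39 for Gata2, -5.87 for Gata3, -1.49 for Gata4 and -1.89 for Gata6.

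**Figure D2:**
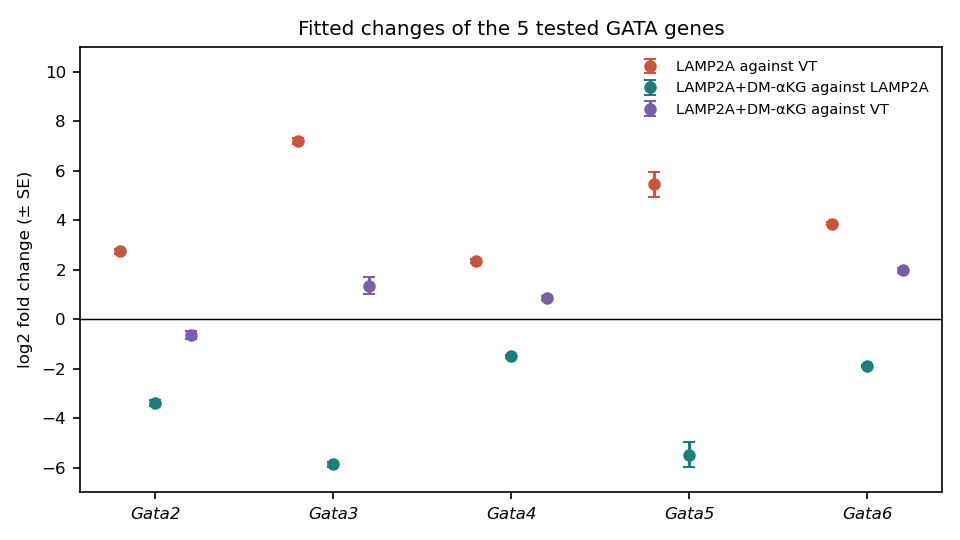
Fitted log2 fold change (vertical axis) with SE for the 5 tested GATA genes in LAMP2A against VT, LAMP2A+DM-αKG against LAMP2A and LAMP2A+DM-αKG against VT. SE is the size of the log2 fold change divided by the square root of the test's F statistic. It can understate the error of a large change. Gata3 has the largest changes of the 5 in LAMP2A against VT and in LAMP2A+DM-αKG against LAMP2A (7.22 and -5.86), and Gata5 has no point in LAMP2A+DM-αKG against VT because both groups hold 2 reads.

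Per exon length, the make-up of the family differed between groups. Levels in CPM per kb of annotated exon allow genes to be set side by side. In LAMP2A+DM-αKG the order was Gata4 (2.76 ± 0.114), Gata6 (1.70 ± 0.0614), Gata2 (0.272 ± 0.0297), then Gata3 (0.143 ± 0.0139) and Gata1 (0.102 ± 0.0769), which overlapped, and Gata5 last (SD, n = 3 each). In LAMP2A it was Gata3 (8.28 ± 0.0381), Gata4 (7.75 ± 0.258), Gata6 (6.30 ± 0.11), Gata2 (2.87 ± 0.194), Gata5 (0.393 ± 0.0746) and Gata1 (0.0736 ± 0.0299). In VT it was Gata4 (1.52 ± 0.199), then Gata6 (0.432 ± 0.0530) and Gata2 (0.429 ± 0.0436), which overlapped, then Gata1 (0.121 ± 0.0144), Gata3 (0.0548 ± 0.00769) and Gata5. Gata3 thus took the first place in LAMP2A and the fifth in VT.

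Summed over the 6 genes, the level was 4.98 ± 0.0765 CPM per kb in LAMP2A+DM-αKG, 25.7 ± 0.456 in LAMP2A and 2.56 ± 0.236 in VT (SD, n = 3 each). Gata4 made up 55.4 ± 2.74% of the sum in LAMP2A+DM-αKG, 30.2 ± 0.660% in LAMP2A and 59.0 ± 2.38% in VT. Gata3 made up 2.86 ± 0.256% of it in LAMP2A+DM-αKG, 32.3 ± 0.579% in LAMP2A and 2.16 ± 0.421% in VT. Gata6 made up 34.1 ± 1.05% in LAMP2A+DM-αKG, 24.6 ± 0.527% in LAMP2A and 16.9 ± 1.80% in VT, so its share was highest in the treated cells. Exon lengths from the annotation count all annotated exons of a gene, and the transcript forms in these cells were not resolved.

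**Figure D3:**
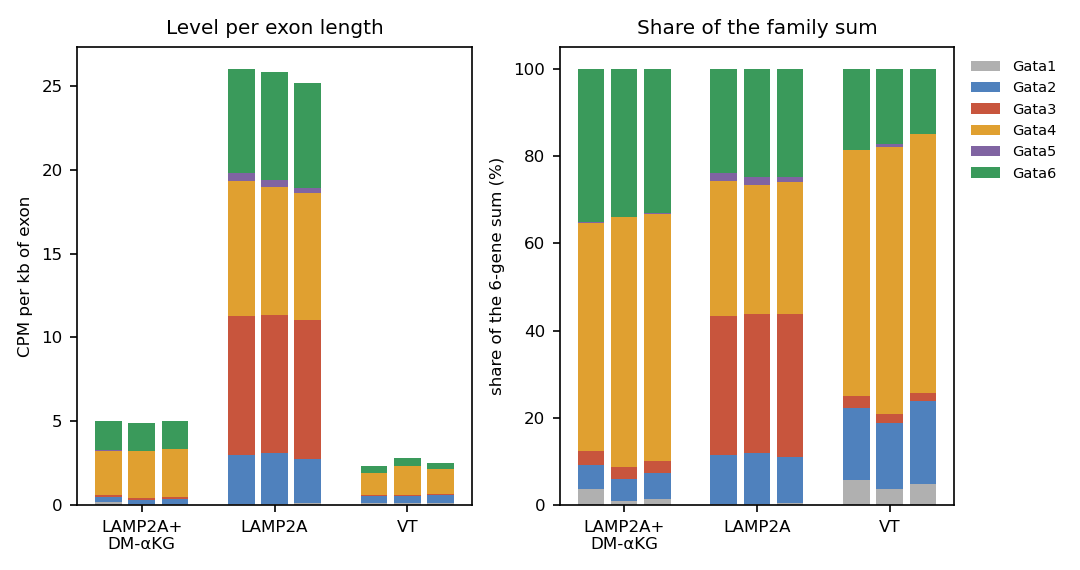
Left, CPM per kb of exon of the 6 GATA genes stacked for each of the 9 libraries, and right, each gene's share of that sum in percent. Gata4 and Gata6 fill most of the LAMP2A+DM-αKG bars, Gata3, Gata4, Gata6 and Gata2 share the LAMP2A bars, and Gata4 is the largest part of the VT bars.

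In build mm10 with GENCODE M21, Gata1 lies at chrX:7959260-7978071 (minus strand), Gata2 at chr6:88193891-88207032 (plus), Gata3 at chr2:9857078-9890034 (minus), Gata4 at chr14:63198922-63271692 (minus), Gata5 at chr2:180325133-180334699 (minus) and Gata6 at chr18:11052064-11085635 (plus). The family is thus spread over 5 chromosomes, with Gata3 and Gata5 far apart on chromosome 2. Whether counting used strand is not given in the sources used here, and reads of overlapping genes on opposite strands then cannot be told apart. The overlapping genes that follow were picked by position after the members' values were seen. 4930412O13Rik, a gene on the opposite strand inside the Gata3 span that shares 0 exon bases with it, had 1, 1 and 0 reads in LAMP2A+DM-αKG, 205, 192 and 177 in LAMP2A, and 0, 0 and 0 in VT. It was at least 163-fold higher in LAMP2A than in VT, with the VT group set at a floor of 3 counts in all. Its LAMP2A libraries stood apart from all others in the same way as those of Gata3. 1010001N08Rik, which starts head to head with Gata6 and shares 93 exon bases with it, had 11, 21 and 11 reads in LAMP2A+DM-αKG, 34, 35 and 17 in LAMP2A, and 4, 4 and 2 in VT. It rose in LAMP2A against VT (log2 fold change 2.83, adjusted p = 8.4e-08) and fell in LAMP2A+DM-αKG against LAMP2A (log2 fold change -0.79, adjusted p = 0.011). Gata5os, antisense to Gata5 with 258 shared exon bases, had 1 read in LAMP2A and 0 in the other groups. 9230102O04Rik, on the same strand as Gata3 with 77 shared exon bases, had 4 reads in LAMP2A and 0 in the other groups. Gm13256, antisense to Gata3 with 155 shared exon bases, was not among the counted genes, and its span covers the Gata3 promoter window shown above.

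The nearest tested protein-coding genes on each side of the members were taken as their neighbours, a set defined after the members' values were seen. Of these 12 neighbours, 3 were higher and 7 lower in LAMP2A than in VT, with a median log2 fold change of -0.30 beside 0.01 over all genes, of which 43.0% were higher and 42.1% lower. In LAMP2A+DM-αKG against LAMP2A, 9 were higher and 2 lower, with a median of 0.27, where 41.1% of all genes were higher and 42.1% lower. Celf2, an RNA-binding protein gene 2347.5 kb from Gata3, moved in the direction of the members, with a log2 fold change of 2.77 in LAMP2A against VT and -1.75 in LAMP2A+DM-αKG against LAMP2A. Neil2, a DNA glycosylase gene 5.1 kb from Gata4, had a log2 fold change of -1.44 in LAMP2A against VT and 1.40 in LAMP2A+DM-αKG against LAMP2A. Slco4a1, an organic anion transporter gene 121.5 kb from Gata5, had -3.38 and 3.43 in the same comparisons, and all 3 genes passed the test in each. These 3 were picked after their values were seen.

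The partners of GATA factors changed in part with them. Of 20 cofactor genes, 19 were tested and Ldb2 had 0 reads in every library. In LAMP2A against VT, 13 were higher, 3 lower and 3 not called, with a median log2 fold change of 1.97. In LAMP2A+DM-αKG against LAMP2A, 3 were higher, 13 lower and 3 not called, with a median of -1.08, and against VT 6 were higher, 2 lower and 11 not called, with a median of 0.09. The median over all tested genes lay between -0.00125 and 0.00809 in the 3 comparisons. For this and every list that follows, the shares over all tested genes were 43.0% higher and 42.1% lower in LAMP2A against VT. They were 41.1% higher and 42.1% lower in LAMP2A+DM-αKG against LAMP2A, and 29.3% in each direction in LAMP2A+DM-αKG against VT. Counts close to these shares say nothing particular about a list. Genes that pass a filter on low counts only through their high group must differ. The counts and medians are therefore a description of the lists and not support for a direction.

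Ets1, a transcription factor of blood, vessel and stromal cells, had 2.16 ± 0.183 CPM in LAMP2A+DM-αKG, 60.6 ± 0.599 CPM in LAMP2A and 1.06 ± 0.213 CPM in VT (SD, n = 3 each), 57.6-fold higher in LAMP2A than in VT. Runx1, a partner in blood cell formation, had 1.91 ± 0.332 CPM in LAMP2A+DM-αKG, 14.8 ± 0.341 CPM in LAMP2A and 1.92 ± 0.128 CPM in VT, 7.69-fold higher in LAMP2A than in VT. Tcf12, an E protein that binds DNA beside GATA factors, had 48.9 ± 2.39 CPM in LAMP2A+DM-αKG, 103 ± 2.74 CPM in LAMP2A and 43.9 ± 1.62 CPM in VT, 2.36-fold higher in LAMP2A than in VT. These 3 had the smallest p-values of the list, and all 3 fell with DM-αKG.

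Other cofactors were picked for their role after their values were seen. Zfpm1 (FOG1), the zinc finger partner that binds GATA factors directly, had 8.14 ± 0.412 CPM in LAMP2A+DM-αKG, 27.8 ± 1.28 CPM in LAMP2A and 7.03 ± 0.579 CPM in VT, 3.93-fold higher in LAMP2A than in VT (adjusted p = 1.6e-24). Its relative Zfpm2 (FOG2), known as a heart partner of Gata4, was low, with 8 reads in LAMP2A+DM-αKG, 75 in LAMP2A and 9 in VT over 3 libraries each. The blood partners Tal1 and Lyl1 went the other way. Tal1 held 61 reads in LAMP2A+DM-αKG, 33 in LAMP2A and 75 in VT, and Lyl1 held 31 in LAMP2A+DM-αKG, 7 in LAMP2A and 80 in VT. Both passed the test as lower in LAMP2A than in VT. Tbx5, a heart factor, was the one cofactor that rose with LAMP2A and was not called with DM-αKG. It held 34 reads in LAMP2A+DM-αKG, 38 in LAMP2A and 4 in VT, with a log2 fold change of 0.04 in LAMP2A+DM-αKG against LAMP2A (SE 0.434, adjusted p = 0.93). The general coactivators Ep300 and Crebbp were not called in LAMP2A against VT, at 212 and 51.3 CPM in LAMP2A and 206 and 50.6 CPM in VT.

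Of 9 other genes with a GATA-type zinc finger, 6 were higher, 2 lower and 1 not called in LAMP2A against VT, with a median log2 fold change of 0.31. Over all tested genes, 43.0% were higher and 42.1% lower in that comparison. Treated cells had 2 higher, 5 lower and 2 not called against LAMP2A, with a median of -0.32, and against VT 3 were higher, 2 lower and 4 not called, with a median of 0.02. Mta1, a subunit of the NuRD chromatin complex, was 1.99-fold higher in LAMP2A than in VT, and Rere, a nuclear receptor corepressor, was 1.91-fold higher. Gatad1, Gatad2a and Gatad2b, chromatin-complex proteins whose symbols also start with Gata, had log2 fold changes of 0.27, 0.31 and -0.02 in LAMP2A against VT, the last not called. Of these 3, Gatad2a alone was called in LAMP2A+DM-αKG against LAMP2A, with a log2 fold change of -0.32, beside -0.01 for Gatad1 and -0.07 for Gatad2b. Trps1, a repressor that binds GATA motifs, moved against the classical members. It had 67.5 ± 2.83 CPM in LAMP2A+DM-αKG, 18.3 ± 0.592 CPM in LAMP2A and 63.8 ± 5.88 CPM in VT (SD, n = 3 each), 3.48-fold lower in LAMP2A than in VT and 3.69-fold higher in LAMP2A+DM-αKG than in LAMP2A.

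Markers of the lineages in which the members act moved with the groups too, and their part in the values of the GATA genes was not tested. Of 27 genes of primitive and extraembryonic endoderm, 26 were tested, of which 23 were higher and 3 lower in LAMP2A than in VT, with a median log2 fold change of 3.08. Their summed level was 2368 to 2442 CPM in LAMP2A+DM-αKG, 6951 to 7047 CPM in LAMP2A and 2170 to 2288 CPM in VT. With DM-αKG, 24 were lower and 2 higher than in LAMP2A, with a median of -2.94. The basement membrane genes Col4a2 and Lamb1 were 8.72-fold and 8.56-fold higher in LAMP2A than in VT, and Cubn, an endocytic receptor of visceral endoderm, was 24.4-fold higher. Against VT, Col4a2 and Lamb1 were still 2.24-fold and 1.2-fold higher in LAMP2A+DM-αKG, whereas Cubn was 1.37-fold lower. Over the list, 13 genes were higher, 5 lower and 8 not called in LAMP2A+DM-αKG against VT, where Gata4 and Gata6 were also higher.

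Of 22 trophoblast genes, 18 were tested, of which 16 were higher and 2 lower in LAMP2A than in VT, with a median log2 fold change of 3.06. The sum was 554 to 560 CPM in LAMP2A+DM-αKG, 4440 to 4480 CPM in LAMP2A and 409 to 439 CPM in VT. With DM-αKG, 13 were lower than in LAMP2A, 4 higher and 1 not called, with a median of -2.29. Krt18 and Krt8, keratins of simple epithelia, were 56.9-fold and 16.7-fold higher in LAMP2A than in VT, and Peg10, an imprinted gene of the placenta, was 13.8-fold higher. Peg10, Krt8 and Krt18, at 2995, 619 and 461 CPM, made up most of the LAMP2A sum. Against VT, 13 trophoblast genes were higher, 2 lower and 3 not called in LAMP2A+DM-αKG, where Gata2 was lower and Gata3 higher. The placental hormone genes Prl3d1 and Prl2c2 had 0 reads in every library.

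Blood and erythroid markers were mostly unread or lower in LAMP2A. Of 22 genes, only 6 were tested, and 7 had 0 reads in every library: the globin genes Hbb-bs, Hbb-bt, Hba-a1, Hba-a2 and Hba-x and the platelet genes Pf4 and Gp9. The summed level, carried by Kit and Tfrc, was 1170 to 1196 CPM in LAMP2A+DM-αKG, 538 to 540 CPM in LAMP2A and 859 to 915 CPM in VT. In LAMP2A against VT, 1 was higher and 5 were lower, with a median log2 fold change of -0.93. The one that rose was Itga2b, an integrin of megakaryocytes and early blood cells, at 2.27 ± 0.365 CPM in LAMP2A+DM-αKG, 3.18 ± 0.437 CPM in LAMP2A and 1.37 ± 0.0451 CPM in VT. Kit and Tfrc, which ES cells also express, and Spi1 had the smallest p-values. Kit was 2.07-fold, Tfrc 1.57-fold and Spi1 7.44-fold lower in LAMP2A than in VT. Treated cells had 4 higher, 1 lower and 1 not called against LAMP2A, with a median of 0.88, and 3 higher, 2 lower and 1 not called against VT.

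Of 15 endothelial genes, 13 were tested, of which 4 were higher, 7 lower and 2 not called in LAMP2A against VT, with a median log2 fold change of -1.06. Their sum was 145 to 148 CPM in LAMP2A+DM-αKG, 128 to 131 CPM in LAMP2A and 183 to 190.4 CPM in VT. Pecam1, an adhesion molecule, and Robo4, a guidance receptor, were 3.74-fold and 3.84-fold lower, and Edn1, which encodes endothelin, was 17.3-fold higher. Pecam1 and Eng carried most of the VT sum, at 74.3 and 63.4 CPM, so both were read in the control ES cells. Treated cells had 4 higher, 5 lower and 4 not called against LAMP2A, with a median of -0.11, and 2 higher, 6 lower and 5 not called against VT. Over all tested genes, 43.0% were higher and 42.1% lower in LAMP2A against VT. The shares were 41.1% and 42.1% in LAMP2A+DM-αKG against LAMP2A, and 29.3% in each direction in LAMP2A+DM-αKG against VT.

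Of 18 heart muscle genes, 17 were tested, of which 14 were higher and 3 lower in LAMP2A than in VT, with a median log2 fold change of 2.64. Their sum was 44.6 to 46.3 CPM in LAMP2A+DM-αKG, 111 to 113 CPM in LAMP2A and 46.1 to 47.5 CPM in VT. Actc1, cardiac actin, had 2 reads in LAMP2A+DM-αKG, 1861 in LAMP2A and 0 in VT over 3 libraries each, at least 528-fold higher in LAMP2A than in VT. Tbx20, a heart transcription factor, was 3.67-fold higher, and Myl4, an atrial myosin light chain, was 5.39-fold lower. With DM-αKG, 13 were lower than in LAMP2A, 3 higher and 1 not called, with a median of -2.75. Against VT, 3 heart genes were higher, 1 lower and 13 not called in LAMP2A+DM-αKG. Nkx2-5, Tbx5, Mef2c and Hand2 are in both the heart and the cofactor list and count as higher in LAMP2A than in VT in each. Of these, Mef2c held 2 reads, Hand2 3 and Tbx5 4 over the VT libraries. In LAMP2A against VT the genes with 0 reads in VT (Fli1, Afp, Nppa and Actc1) have lower bounds above the medians of their lists. Setting them at these bounds therefore could not move the cofactor, endoderm and heart medians. How far those medians depend on other genes with few reads in VT was not tested. In LAMP2A+DM-αKG against VT the cofactor median was 0.05 without Fli1, which is at or under the floor of 3 counts in both groups.

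Markers of ES cells and of fibroblasts moved with the groups as well. Of 15 ES cell genes, 14 were tested, and 14 were lower in LAMP2A than in VT and higher in LAMP2A+DM-αKG than in LAMP2A, with medians of -2.07 and 1.72. Tdgf1, a NODAL co-receptor, was 8.49-fold lower in LAMP2A than in VT, and the ES cell transcription factors Esrrb and Klf4 were 5.88-fold and 5.83-fold lower. In LAMP2A+DM-αKG against VT, where 3 GATA genes were still higher, 11 ES cell genes were lower and 2 higher, with a median of -0.32. Of 15 fibroblast and feeder genes, 12 were tested, of which 11 were higher in LAMP2A than in VT, with a median of 5.83, and 12 were lower in LAMP2A+DM-αKG than in LAMP2A, with a median of -5.44. Against VT, 0 were higher, 1 lower and 11 not called in LAMP2A+DM-αKG. Their sum was 9.63 to 15.4 CPM in LAMP2A+DM-αKG, 163 to 165 CPM in LAMP2A and 11.2 to 12.8 CPM in VT. The medians of 5.83 and -5.44 rest in part on Col1a2, Col3a1, Dcn, Postn, Twist2, Prrx1 and Col6a1. These held 1 to 7 reads over the VT libraries, passed the filter on low counts only through LAMP2A, and had to differ. Col1a1, a fibrillar collagen, was 60.6-fold higher in LAMP2A than in VT, Loxl1, an elastin cross-linking enzyme, was 8.11-fold higher, and Dcn, the matrix proteoglycan decorin, held 6 reads in LAMP2A+DM-αKG, 640 in LAMP2A and 1 in VT. Thy1 was the lone member that fell, 1.38-fold, and Fap, a protease of activated fibroblasts, had 1 read in LAMP2A+DM-αKG and 0 in LAMP2A and VT.

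**Figure D4:**
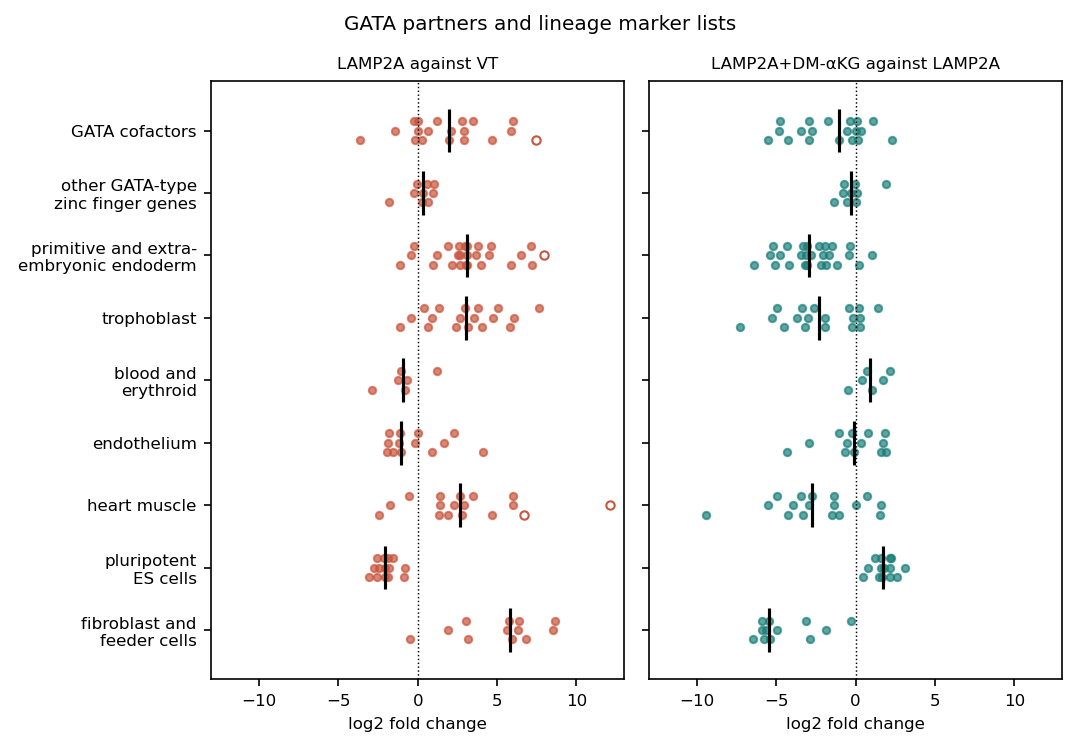
Log2 fold change of each tested gene of 9 lists in LAMP2A against VT (left) and in LAMP2A+DM-αKG against LAMP2A (right), with a black bar at the list median; hollow circles are genes with 0 reads in VT, whose fitted value is no bound. The endoderm, trophoblast, heart and fibroblast medians lie to the right on the left panel (3.08, 3.06, 2.64 and 5.83), and the ES cell median lies to the left (-2.07). The fibroblast median rests in part on genes with 1 to 7 reads over the VT libraries.

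Genes whose pattern was most like each member were sought by Euclidean distance between mean-centred log2 CPM profiles over the 9 libraries, among 13723 genes. The points share libraries and fall in 3 groups, so a small distance describes the group pattern only. Gata2 was nearest to Aif1l (distance 0.339), Fstl1 (0.344) and Gap43 (0.437), which also ended below VT in LAMP2A+DM-αKG, with log2 fold changes of -0.47, -0.68 and -0.41. Gata3 was nearest to Hs6st2 (0.730), Pmp22 (0.740) and P3h2 (0.865), with log2 fold changes of 6.80, 7.47 and 6.70 in LAMP2A against VT. Gata4 was nearest to Lrrc8c (0.282), Chst14 (0.341) and B3glct (0.346), and Gata6 to Tinagl1 (0.459), Flnc (0.617) and Fam13a (0.706), which kept log2 fold changes of 2.02, 1.79 and 1.92 in LAMP2A+DM-αKG against VT. Gata5 was nearest to Zic1 (1.18), March10 (1.2) and Ednra (1.21). Among the members, Gata4 and Gata6 were the closest pair (1.93) and Gata3 and Gata4 the farthest (6.37).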

How the data were processed

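RNA of 9 libraries of D3 mouse ES cells was sequenced from a stranded mRNA kit, per the labels' protocols. The submitters' processing notes list STAR 2.7.1, HTSeq 0.11.2, DESeq2 without a version, and mm10. Which annotation was counted, and with which strand setting, is not given in the sources used here. The authors deposited raw counts per gene symbol and tables of 2 comparisons with a mean normalized count per gene (a signal), the log2 fold change and its error, a test statistic (a score) and p-values. Of these, the deposited log2 fold changes are printed. 0 columns belonged to other samples.

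All 9 libraries entered a single model in edgeR 4.0.16 under R 4.3.3 (filterByExpr by group with a minimum count of 10, TMM scaling, robust quasi-likelihood fit of group means, Benjamini-Hochberg adjustment over 14513 genes, threshold 0.05). CPM used TMM-scaled library sizes. The residual degrees of freedom were 6 and the common biological coefficient of variation was 2.74%, a spread that technical replicates could give. Libraries of a group differed from each other by a chi-square of 1.19 to 5.93 per degree of freedom, more than counting alone gives, and none were merged. The scripts were tested on simulated data.

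The genes named are the members, Lamp2, other genes with symbols starting with Gata, the 3 genes per list that had the smallest p in LAMP2A against VT, any lone member moving against its list, and the 3 nearest profiles per member (these without predicted or clone symbols). Overlapping and neighbouring genes and some cofactors fall outside this rule, as do markers named only as unread, with few reads in a group or as carrying a sum. They were chosen after their values were seen. The members and lists were chosen with earlier results of these data known. Alternatives were no filter, a mean of at least 1 CPM, other scalings, DESeq2 1.42.0, separate fits of 2 groups, a replicate block and leaving out each library. Intervals and floors cover counting error only. Exon lengths and positions come from GENCODE M21, promoters from RefSeq (GRCm38.p6), matched by symbol. Proteins were not used here.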

Additional observations from a re-analysis of the deposited data

How the results depend on the processing

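The counts of GATA genes called in the 3 comparisons stayed within 1.5 times their value under all 16 alternatives. Here they include Gata5, which passed the filter only through the LAMP2A libraries and had to differ. A mean of at least 1 CPM dropped Gata5, leaving 4 genes in place of 5 in LAMP2A against VT. The same held in LAMP2A+DM-αKG against LAMP2A. The fitted log2 fold changes of the tested members kept their direction and call, except Gata5 in LAMP2A+DM-αKG against VT, which was not called and ran from -0.56 to 2.72 when 1 library was left out, turning positive without VT replicate 2 (2.72) or LAMP2A+DM-αKG replicate 2 (0.47). The similar genes depended on the measure: with profiles scaled to unit SD, 0 of the 3 named genes were kept for Gata2, 0 for Gata3, 0 for Gata4, 0 for Gata5 and 0 for Gata6. Same-numbered libraries did not deviate together (correlations -0.0266 to 0.0117 over 9 pairs, against -0.0198 to 0.0340 over 18 others). With a replicate block 12341, 12065 and 8462 genes were called in place of 12355, 12081 and 8517. Gata2, Gata3, Gata4 and Gata6 were still higher in LAMP2A than in VT with that block. Over all lists together, 67 to 87 members were higher and 35 to 43 lower in LAMP2A against VT under the alternatives. In single lists, 43 counts moved by more than 1.5 times, mostly counts of a few genes. Larger counts moved too, each under 1 of the 16 alternatives, the filter at a mean of at least 1 CPM, which drops genes with few reads. In LAMP2A against VT, heart genes called higher fell from 14 to 6 and cofactors from 13 to 7. In LAMP2A+DM-αKG against LAMP2A, heart genes called lower fell from 13 to 6 and cofactors from 13 to 8. Depth limits Gata1 in all groups, and Gata5 outside LAMP2A.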
